A study of Oryza sativa with 6 samples.

Results

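The Pht1 genes of rice (Oryza sativa) encode proton-coupled carriers that bring inorganic phosphate across the plasma membrane. They were followed here in young uppermost internodes of coi1-13, which the labels call a mutant, and of the wild type cultivar Nipponbare. The labels give no lesion, growth stage or phosphate supply, so nothing is known here of the nutrient status of the plants. Total RNA was made into biotin-labelled cRNA and hybridised to Affymetrix rice arrays, 3 for coi1-13 and 3 for wild type, each called a biological replicate.

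Pht1 carriers are known mostly from roots, where they take phosphate up from soil. Several also act inside the shoot, where phosphate is unloaded from the vessels and moved between organs. In rice, phosphate starvation acts on many of them through PHR factors, MYB-type regulators that SPX proteins hold back while phosphate is plentiful. Jasmonate perception runs through COI1, the F-box protein after which the coi1-13 genotype is named.

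Members were the genes carrying a Pht1 name with a number from 1 to 8 in the gene table, and all of their single-gene probe sets were used. A probe set is a group of short probes read as 1 value. The annotation named 8 such genes, and 7 of them had a probe set, out of 17905 genes with one on the array. They were read by 13 probe sets, 1 to 3 for each gene. Pht1;5 had none and was not analysed here. The gene read as Pht1;4 (LOC4335115) also carries an older synonym with the number 2.

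The family was chosen by name, but with its differences between these genotypes already known, first that of the dimmer Pht1;1 probe set. The members' differences are therefore descriptions with no test. Directions rest on the labels, and the 3 genes of the COI family do not check them: COI1a, COI1b and COI2 differed by -0.11, 0.00 and -0.09 on the log2 scale and none passed the test (limma adjusted p = 0.0582, 0.983 and 0.343).

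All values are log2 signals, and a difference is coi1-13 minus wild type. Array medians lay between 5.62 and 5.75 in coi1-13 and between 5.55 and 5.56 in wild type. A signal counted as above background on an array when it lay over all 33 negative controls there. That level was 5.26 to 5.56 on coi1-13 arrays, highest on replicate 3, and 4.93 to 5.11 on wild type arrays, so a dim signal counted as background more readily in coi1-13. Of the internode markers, all 7 genes with a probe set (KNOX homeobox and secondary wall cellulose synthase genes) were above background on all 6 arrays. Of these 7, 2 rose in coi1-13 and 5 fell, by the calls described below. Over all genes tested with 1 probe set each, 21.2% were called higher and 26.7% lower. The summed linear signal of the 7 was 21682 to 22996 in coi1-13 and 26703 to 28233 in wild type.

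By that measure 5 of the 13 Pht1 probe sets were above background on all 6 arrays: the brighter one of Pht1;1, that of Pht1;4, the brighter one of Pht1;7 and a pair of Pht1;8. Another 4 were above it on no array, and the other 4 on some. The upper 60% of probe sets by mean signal, those with a mean of at least 4.37, were fitted together with limma, and 8 Pht1 probe sets of 6 genes were among them. Of these 8, 2 were called higher in coi1-13 and 2 lower at a Benjamini-Hochberg adjusted p under 0.05. Of all 34355 probe sets fitted, 35.9% were called, 16.5% higher and 19.4% lower. The 3 coi1-13 values lay apart from the 3 wild type values in 4 of the 8, against 47.5% of all probe sets fitted. The median difference was 0.26 over the 8 and -0.01 over all fitted. Nothing is read from these counts, since the contrast had a part in choosing the family.

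**Figure D1:**
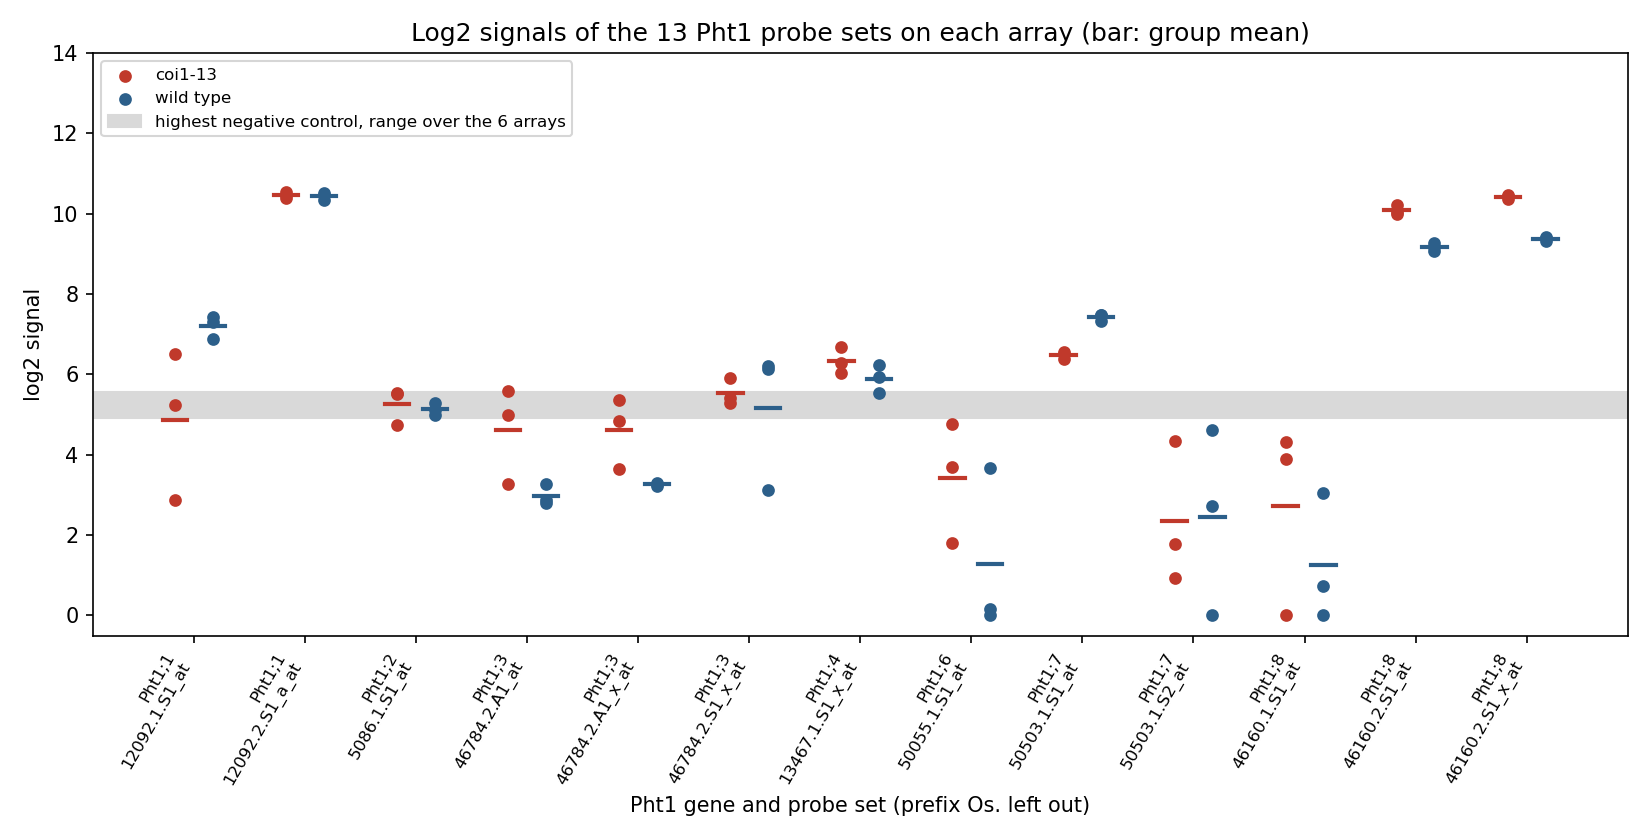
Log2 signal (vertical axis) of each of the 13 Pht1 probe sets (horizontal axis) on the 3 coi1-13 arrays (red, left) and the 3 wild type arrays (blue, right), with group means as bars and the highest negative control, 4.93 to 5.56 over the 6 arrays, in grey. The genotypes stand apart most cleanly for both bright Pht1;8 probe sets and the brighter Pht1;7 one.

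Pht1;8 (LOC4348741, chromosome 10), a high-affinity carrier known for uptake and for phosphate transfer within the rice plant, was about doubled in coi1-13 on both of its bright probe sets. On the brighter one, Os.46160.2.S1_x_at, whose ending x_at marks some probes that may also bind other transcripts, the 3 coi1-13 arrays read 10.46, 10.37 and 10.45, against 9.41, 9.40 and 9.32 on the wild type arrays. All coi1-13 values were thus above all wild type values, with little spread in either genotype. The means were 10.43 ± 0.05 in coi1-13 and 9.38 ± 0.05 in wild type (SD, n = 3 each), a difference of 1.04 ± 0.06 (SE), or 2.06-fold. Os.46160.2.S1_at, drawn from the same design sequence and so no independent reading, gave 10.22, 9.99 and 10.05 in coi1-13, against 9.17, 9.26 and 9.07 in wild type. Its difference was 0.92 ± 0.08 (SE), or 1.89-fold. Differences at least this far upward were seen in 4.72% and 5.96% of all probe sets fitted. In bulk tissue, more cells that carry a transcript and more transcript per cell cannot be told apart, here and for all values below.

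The third probe set of the gene, Os.46160.1.S1_at, was above background on no array. It read 3.89, 0.00 and 4.31 in coi1-13, against 0.00, 3.05 and 0.72 in wild type, where 0 is the floor of the scale and values near it have no order. It gives no direction.

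Pht1;7 (LOC4331542, chromosome 3), a less studied member, was lower in coi1-13 by a like amount. Os.50503.1.S1_at read 6.56, 6.39 and 6.52 in coi1-13, against 7.49, 7.48 and 7.34 in wild type, with no overlap. The means were 6.49 ± 0.09 in coi1-13 and 7.44 ± 0.09 in wild type (SD, n = 3 each). The difference was -0.95 ± 0.15 (SE), which is 1.93-fold lower, and 3.10% of all probe sets fitted lay at least this far down. Its second probe set, Os.50503.1.S2_at, was above background on no array, with 0.92, 4.34 and 1.77 in coi1-13, against 0.00, 2.73 and 4.63 in wild type.

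For Pht1;1 (LOC4331635, chromosome 3), a carrier known in rice for phosphate uptake and transfer also when supply is ample, the probe sets did not give 1 answer. The brighter one, Os.12092.2.S1_a_at, read 10.46, 10.53 and 10.39 in coi1-13, against 10.53, 10.34 and 10.47 in wild type. These ranges overlapped almost wholly, and the difference was 0.02 ± 0.06 (SE). The ending a_at marks, by Affymetrix convention, probes shared by alternative transcripts of 1 gene, while a plain at marks probes meant to be unique.

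The dimmer one, Os.12092.1.S1_at, read 5.24, 6.51 and 2.88 in coi1-13, against 6.88, 7.42 and 7.30 in wild type. No coi1-13 value reached the lowest wild type value, but the 3 coi1-13 values were far from one another, and replicate 2 alone exceeded its background level. The means were 4.87 ± 1.84 in coi1-13 and 7.20 ± 0.28 in wild type (SD, n = 3 each), and the difference was -2.33 ± 0.71 (SE). Its size rests largely on coi1-13 replicate 3: it was -1.33 without that array. It was -1.42 when signals under each array's background level were raised to that level. The 2 probe sets are drawn from different design sequences, and which transcripts each binds was not tested.

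Pht1;4 (chromosome 4), known in rice for phosphate uptake and for supply to the seed, was read by Os.13467.1.S1_x_at alone. It too ends in x_at, and it read 6.67, 6.28 and 6.03 in coi1-13, against 5.53, 6.22 and 5.93 in wild type. The ranges overlapped, the difference was 0.43 ± 0.27 (SE), and it was not among the calls.

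No probe set of the other members was above background on all 6 arrays. Pht1;2 (LOC4331637, chromosome 3), a low-affinity carrier known for moving phosphate from root to shoot in rice, read 4.74, 5.53 and 5.50 in coi1-13, against 5.29, 5.11 and 4.98 in wild type. Only coi1-13 replicate 2 and wild type replicates 1 and 3 exceeded background, and the difference was 0.13 ± 0.37 (SE). It has no direction to speak of, since it was -0.03 under quantile normalization.

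Pht1;3 (LOC4348740, chromosome 10), a family member known for uptake at very low phosphate in rice, had 1 fitted probe set, Os.46784.2.S1_x_at. It read 5.30, 5.91 and 5.42 in coi1-13, against 3.11, 6.21 and 6.14 in wild type, above background on 2 arrays of each genotype. Wild type replicate 1 alone set the sign: the difference was 0.39 ± 0.72 (SE) with it and -0.64 without it. The gene's other probe sets were too dim to be fitted. Os.46784.2.A1_at read 3.28, 5.58 and 5.001 in coi1-13, against 2.80, 3.26 and 2.88 in wild type. Os.46784.2.A1_x_at read 3.64, 4.85 and 5.37 in coi1-13, against 3.31, 3.28 and 3.21 in wild type. The coi1-13 values were all above the wild type values in both, but of these 12 values a single one, coi1-13 replicate 2 of Os.46784.2.A1_at, was above background, so no fold is given. Both names carry the letter A, which by Affymetrix convention marks an antisense orientation to the design sequence, so their strand was not settled here. These probe sets are also drawn from the same design sequence, so they are no independent readings. Pht1;6 (LOC4346342, chromosome 8), a high-affinity carrier of broad activity, read 3.69, 1.79 and 4.77 in coi1-13, against 3.67, 0.17 and 0.00 in wild type, above background on no array.

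Several Pht1 genes are neighbours in the gene order of the RefSeq table. Pht1;3 and Pht1;8 lie next to each other on chromosome 10 with no annotated gene between them. Their fitted probe sets differed by 0.39 for Pht1;3, with overlap, and by 0.92 and 1.04 for Pht1;8, without overlap. On chromosome 3, Pht1;12 lies directly beside Pht1;1, and 1 gene separates Pht1;1 from Pht1;2. The first of these, outside the 8 members, read 6.70, 6.72 and 6.60 in coi1-13, against 7.21, 7.22 and 7.13 in wild type. It fell by 0.52 on the log2 scale (SE 0.15, limma adjusted p = 0.0181), next to Pht1;1, whose brighter probe set differed by 0.02 and whose dimmer one differed by -2.33. The call of Pht1;12 was lost without wild type replicate 1 or 2 (adjusted p = 0.0538 and 0.0564). Pht1;7 comes before this group on the same chromosome, with 99 genes between.

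The other genes of phosphate transport and signalling were taken from a list of names, 27 of them found in the annotation and 16 with a probe set. The list was chosen with earlier results of these data known. Of 15 tested, with the brightest probe set standing for each gene, 5 rose in coi1-13, 2 fell and 8 did not pass. Over all 16706 genes tested in this way, 21.2% were called higher and 26.7% lower. The list median was 0.03, near the median of -0.01 over all probe sets fitted.

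Among the PHR regulators, PHR3 rose most. It read 11.10, 11.07 and 11.12 in coi1-13, against 9.87, 9.85 and 9.79 in wild type, a difference of 1.26 ± 0.05 (SE, limma adjusted p = 1.8e-08), or 2.39-fold. The name of this PHR3 probe set carries the letter A, which by Affymetrix convention marks an antisense orientation to the design sequence, so the strand it reads was not settled here. PHR1 rose by 0.43 ± 0.07 (SE, adjusted p = 0.000987). PHR2, the regulator best known for phosphate starvation in rice, had 10.36 ± 0.08 in coi1-13 and 10.46 ± 0.02 in wild type (SD, n = 3 each), and its difference of -0.11 did not pass (adjusted p = 0.140).

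Of the SPX genes, whose proteins sense phosphate status, SPX1 and SPX2 rose by small amounts, 0.22 ± 0.06 and 0.20 ± 0.06 (SE, limma adjusted p = 0.0153 and 0.0222). The SPX2 probe set carries the letter A as well, so its strand was not settled either. Both calls were lost when arrays were centred on their medians, where the differences were 0.10 and 0.08 (adjusted p = 0.282 and 0.413). Both were also lost without the variance trend (adjusted p = 0.0763 and 0.0797) and without coi1-13 replicate 3 (adjusted p = 0.0602 and 0.0737), that of SPX1 without wild type replicate 3 (0.0624), and that of SPX2 without wild type replicate 1 or 2 (0.0816 and 0.0605). SPX4 gave 0.03 on its brightest probe set (adjusted p = 0.676) and 0.40 on a dimmer one (adjusted p = 0.0479). The phosphate exporter PHO1;2, known for loading phosphate into the vessels and for filling the grain, differed by -0.17 (adjusted p = 0.321). PHT3, of the mitochondrial carrier family, differed by 0.27 (adjusted p = 0.223).

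The galactolipid synthase genes, whose products can stand in for phospholipids when phosphate is scarce, went both ways. MGD1 fell by 0.34 (SE 0.04, limma adjusted p = 8.4e-05), while MGD3 rose by 0.22 ± 0.05 (SE, adjusted p = 0.00703), though not once arrays were centred on their medians (0.10, adjusted p = 0.303). Pht1;11, a carrier known from rice roots colonised by mycorrhizal fungi, was above background on no array by any of its 4 probe sets.

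**Figure D2:**
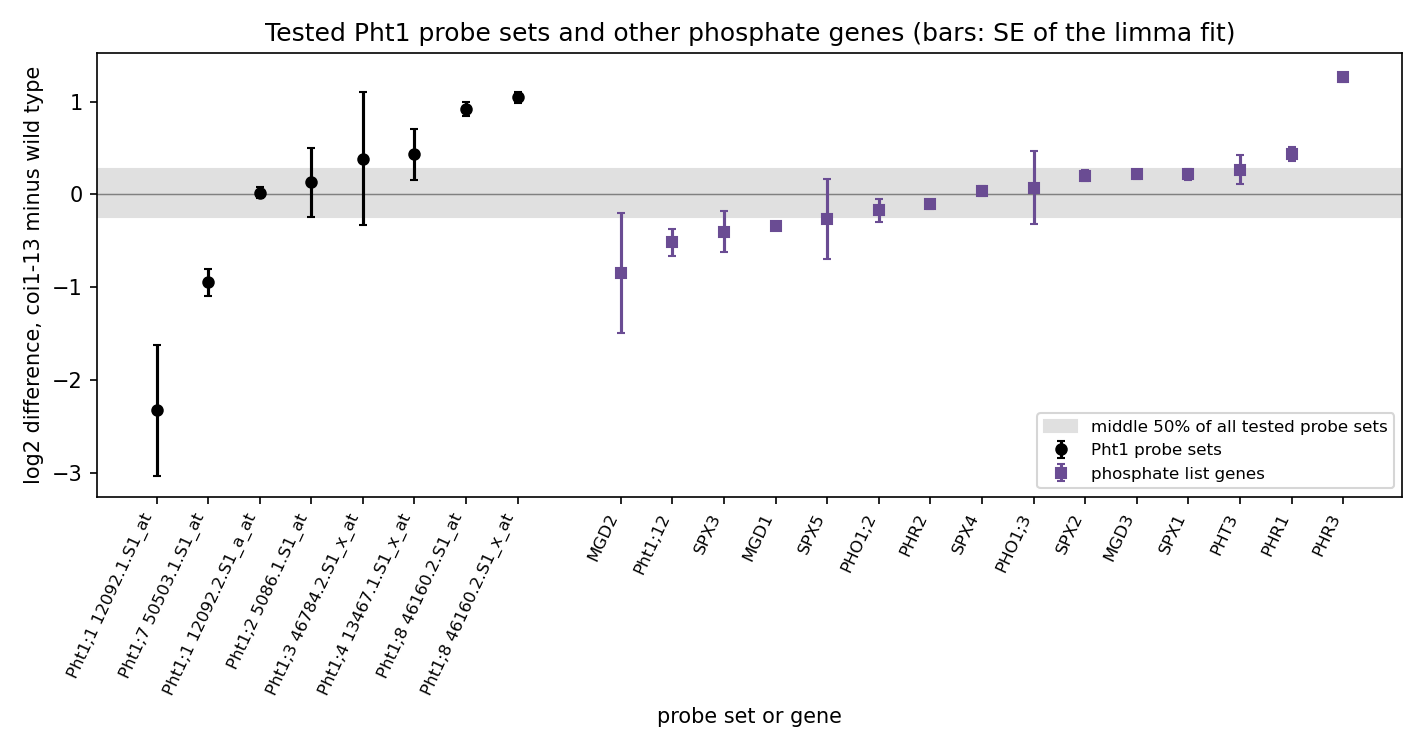
Log2 difference, coi1-13 minus wild type (vertical axis), of the 8 fitted Pht1 probe sets (black circles) and the 15 tested phosphate list genes (purple squares), with SE bars from the limma fit, against the range between the quartiles of all probe sets fitted, -0.24 to 0.27 (grey). The bright Pht1;8 pair and PHR3 lie above the grey band.

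Carriers of other nutrients gave a frame for the family. The 43 tested genes were taken by family name, for ammonium, nitrate, potassium (HAK, AKT and HKT), copper, zinc and iron transport. Of these 43, 15 rose in coi1-13, 6 fell and 22 did not pass, against the same 21.2% and 26.7% over all genes. Their median difference was 0.13. The 4 called with the largest rise as fitted were NAR2.2, a partner protein of nitrate transporters (2.18 ± 0.61 SE), the zinc transporter gene ZIP8 (1.36 ± 0.18 SE), the potassium channel gene AKT1 (1.33 ± 0.08 SE) and the potassium carrier gene HAK16 (1.16 ± 0.23 SE), with limma adjusted p-values of 0.0172, 0.000185, 5.1e-07 and 0.00236. NAR2.2 was above background on 1 of 3 wild type arrays. Its difference was 1.39 when signals under background were raised to that level, 1.49 without wild type replicate 2 and 2.99 without wild type replicate 3, and its call was lost without the variance trend, coi1-13 replicate 1, coi1-13 replicate 2 or wild type replicate 1 (adjusted p = 0.0948, 0.0552, 0.0551 and 0.0521). The largest falls were smaller, by 0.71 for ZIP5, 0.65 for HAK4, 0.53 for HAK22 and 0.40 for COPT1 (adjusted p = 2.2e-06, 1.4e-05, 0.000199 and 0.00325). The Pht1;8 differences of 0.92 and 1.04 were smaller than each of these 4 rises, and the Pht1;7 difference of -0.95 was a larger fall than that of ZIP5. No test of a difference between the families was made.

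Markers of other tissues were counted in the same way, against 21.2% higher and 26.7% lower over all genes. Of 6 root marker genes, 5 were tested: RAA1, the silicon channel gene NIP2-1 and NAAT1 rose and IRT1 and IRT2 did not pass, and the summed linear signal of the list was 3017 to 3266 in coi1-13 and 936 to 1138 in wild type. NAAT1 was above background on no wild type array. The silicon exporter gene Lsi2, typical of roots, was above background on no array. Of 8 anther and pollen genes, 7 fell, none rose and 1 did not pass, with a summed signal of 42462 to 45911 in coi1-13 and 54140 to 55278 in wild type. All but PTC1 were above background on all 6 arrays. Of 6 tested leaf genes, 3 rose, 1 fell and 2 did not pass, at 65741 to 68192 in coi1-13 and 55922 to 57972 in wild type. The part of these tissues in the Pht1;8 and Pht1;7 differences was not tested.

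To see which named genes had a pattern most like that of Pht1;8, its brighter probe set was set against 2877 fitted probe sets of named genes. PSY3, a phytoene synthase gene of carotenoid synthesis, had the highest Pearson's r over the 6 arrays, 0.9997, followed by PHR3 at 0.9991 and RCCR1, a chlorophyll breakdown gene, at 0.9991. PSY3 read 12.86, 12.74 and 12.86 in coi1-13, against 11.86, 11.84 and 11.74 in wild type. RCCR1 read 10.17, 10.11 and 10.15 in coi1-13, against 9.14, 9.08 and 9.06 in wild type. The 6 arrays form 2 clusters, one per genotype, so r is close to 1 for a probe set whose difference in this direction is large against its spread. It is given as a description only.

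**Figure D3:**
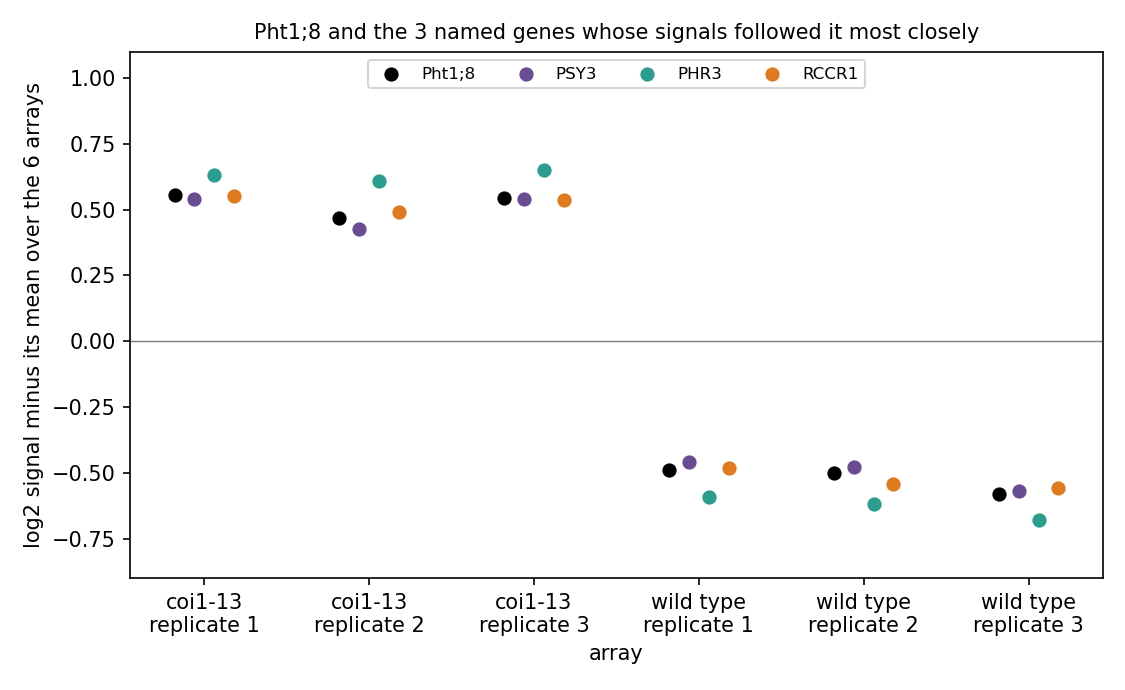
Log2 signal minus its mean over the 6 arrays (vertical axis) on each array (horizontal axis, coi1-13 left, wild type right) for the brighter Pht1;8 probe set and the 3 named genes with the highest Pearson's r to it, 0.9991 to 0.9997. All 4 stand above 0 on the coi1-13 arrays and below 0 on the wild type arrays, with PHR3 the farthest from 0 on each array.

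The Pht1;8 and Pht1;7 differences changed little with the processing. Over 13 other settings the Pht1;8 difference lay between 0.92 and 1.07 for its brighter probe set and between 0.80 and 0.97 for the other bright one. That of Pht1;7 lay between -1.07 and -0.90. The brighter Pht1;1 probe set stayed between -0.10 and 0.06, and the dimmer one ran from -3.14 to -1.33 over the 12 settings that kept it. Centring each array on its median, which moved every difference by -0.12, gave the lowest Pht1;8 values.

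**Figure D4:**
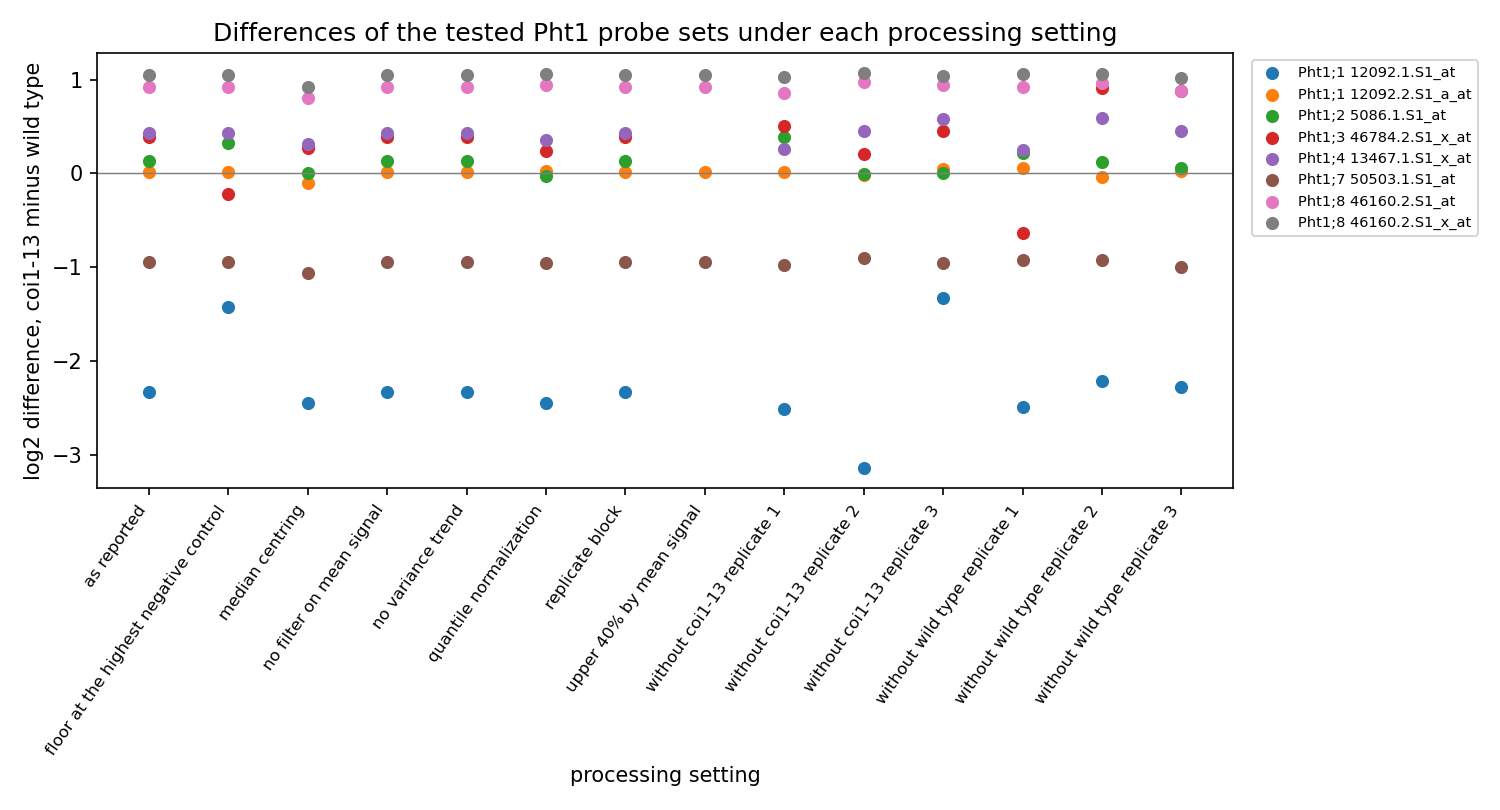
Log2 difference, coi1-13 minus wild type (vertical axis), of the 8 fitted Pht1 probe sets under the reported processing and 13 alternatives (horizontal axis). The sets at 0.80 to 1.07 (Pht1;8) and at -1.07 to -0.90 (Pht1;7) keep their place, and the lowest one spreads from -3.14 to -1.33.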

How the data were processed

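Deposited values for 57381 probe sets on 6 arrays were log2 signals made with GCOS 1.4, per the submitters' processing notes. Other steps by the authors are not given in the sources used here. Taken as powers of 2, the trimmed mean signal (2% at each end) was 500.07 on every array, the mark of scaling to 1 target. Probe sets were named through the platform annotation and a RefSeq gene table (assembly ASM3414082v1, used for names and gene order only). Of 57258 probe sets other than controls, 22436 had 1 gene and 95 had several. No 2 arrays were identical.

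After dim probe sets were dropped (the lower 40% by mean signal), 34355 were fitted at once with lmFit and eBayes (trend on, no block) of limma 3.58.1 (R 4.3.3), with Benjamini-Hochberg adjustment over all of them. The script was tested on simulated data. Folds are powers of 2 of log2 differences. A gene in a list is read by its brightest probe set. Each gene called in the phosphate list was named, with the 4 brightest not called (a dimmer SPX4 probe set and Pht1;11 were added), and the 4 largest called changes each way among the other carriers. PAP symbols (purple acid phosphatases) were not searched for the phosphate list. The symbol PAP2 was left out because the annotation does not say which protein it names. Members and lists were chosen with earlier results of these data known, and no sequence was used here. The labels state no pairing by replicate number. Deviations of same-numbered arrays from their group means correlated at -0.003, 0.001 and 0.0004, so no variation shared by number was seen. Precision is limited by 3 arrays per genotype. Each limma SE and p-value sets a difference between genotypes against a moderated spread. That spread joins the probe set's own values on these samples with the trend over all probe sets fitted, so it can differ from the printed SD. Without the trend, the limma adjusted p of Pht1;12 was 0.0033, against 0.0181, and that of SPX1 was 0.0763, against 0.0153.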

Additional observations from a re-analysis of the deposited data

How the results depend on the processing

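Counts of called Pht1 probe sets are descriptions, since the members were chosen with their differences known. Calls higher numbered 2 in each of 13 alternatives, both of 1 design sequence of Pht1;8. Calls lower numbered 2, but 1 without the variance trend and 1 in the upper 40% by mean signal, where the dimmer Pht1;1 probe set was not fitted. With 1 array left out they numbered 1 to 2, the 1 being without wild type replicate 2 or 3. The call lost was each time that of the dimmer Pht1;1 probe set, which was called in 9 of the 12 settings that kept it. Over the phosphate list, calls higher were 2 under median centring and 3 without the variance trend, against 5, and 3 to 5 with 1 array left out (3 without coi1-13 replicate 3). Calls lower were 1 to 3, with 1 without wild type replicate 1 or 2, where Pht1;12 was lost. Median centring gave 11 other carriers lower, against 6, and 3721 probe sets higher and 9522 lower over the array, against 5679 and 6668, so that 28.1% of calls were higher, against 46.0%. With 1 array left out, the other carriers gave 13 to 16 higher and 6 to 7 lower, and the whole array 4925 to 5273 higher and 5688 to 6091 lower. Under the replicate block all these list counts were the same, with 5481 probe sets higher and 6336 lower. PHR2 was called lower under median centring (-0.23) and without coi1-13 replicate 3 (-0.15). No called gene changed sign. The cause of these shifts was not tested.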

Other observations

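Of 6 ammonium transporter genes tested, 4 rose in coi1-13, none fell and 2 did not pass, against 21.2% called higher and 26.7% lower over all genes. AMT2;1 rose by 1.04, AMT3;2 by 0.94, AMT3;3 by 0.93 and AMT1;1 by 0.44 on the log2 scale (limma adjusted p = 2.1e-05, 0.000181, 0.0174 and 0.000379). The AMT3;3 call was lost with no filter on mean signal and without coi1-13 replicate 2 (adjusted p = 0.0533 and 0.0616). AMT2;1 read 8.66, 8.48 and 8.65 in coi1-13, against 7.62, 7.43 and 7.60 in wild type. Of the 2 that did not pass, AMT2;3 differed by -0.36 and AMT3;1 by 0.20. Of 21 genes of the potassium carrier family HAK, 6 rose and 4 fell, near the shares over all genes. Both families were picked after their values were seen.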
